A study of Mus musculus with 4 samples.

Results

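The ubiquitin-specific proteases, encoded by the Usp genes, were examined in mouse helper T cells with and without Bfar. Members were the genes whose symbol begins with Usp and a digit and that are listed in the tables of all 4 libraries, without Usp18. The rule found 46 of the 14469 genes listed in every library. A further 5 such symbols were listed in only 1 or 2 libraries and were left out: Usp13, Usp50, Usp51, Usp17ld and Usp17le, with at most 4 counts in any library. Usp18, which is left out by the rule, removes the ubiquitin-like protein ISG15 rather than ubiquitin.

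RNA was sequenced from CD4+ T cells of C57BL/6 mice aged 6 to 8 weeks, and each genotype had 2 libraries. The cells were sorted from spleen and lymph nodes as naive cells, activated with antibodies to CD3 and CD28, and kept for 3 days in conditions that drive Th9 cells, which make interleukin 9. The groups were wild type and BFAR-/-, where the labels' protocols describe the deletion as conditional in T cells; the Cre line is not given in the sources used here. No label says whether replicates are separate mice, and p-values cover just the variation among these libraries, which may be technical.

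Ubiquitin is a small protein that ligases attach to other proteins, singly or in chains, and that deubiquitinases take off again. The ubiquitin-specific proteases are the largest family of deubiquitinases, and most are cysteine proteases with a conserved catalytic fold. Bfar encodes a ligase of the endoplasmic reticulum membrane, so these enzymes act on the opposite side of the same modification. Members of the family are known to act on TGF-beta receptors, on T cell receptor signalling and on Foxp3, the transcription factor of regulatory T cells.

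Each library summed to between 19058009 and 19782923 expected counts. A count of 3 equals 0.151 to 0.158 CPM, the counts scaled to library size. Bfar itself stood at 36.4 and 32.9 CPM in wild type against 8.45 and 7.79 CPM in BFAR-/- cells, as the labels have it. The T cell genes Cd4, Cd3e, Cd3g and Cd28 were all well detected and higher in the knockout, with log2 differences of 0.23, 0.20, 0.21 and 0.34 (edgeR adjusted p from 3.21e-05 to 0.0033), and Cd4 had 581 to 592 CPM in wild type and 671 to 702 CPM in the knockout. Lck, also a T cell gene, was at -0.05 and did not pass (edgeR adjusted p = 0.363). The part of these differences in the results on Usp genes was not tested. Markers of CD8, B, myeloid, natural killer and erythroid cells together had 13.1 and 13.6 CPM in wild type and 12.4 and 13.7 CPM in the knockout. Of those 14 markers 10 were listed in at least 1 library, 4 could be tested and none passed. Itgax was at -0.95 in log2 (edgeR adjusted p = 0.0726) and Cd79a at 0.997 (0.0919), both with 28 counts or fewer per library.

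The rule required listing in every library, so detection of the members is not itself a result. Levels of different genes are compared here in FPKM, the deposited values that divide fragments by gene length and library size. The mean FPKM over the 4 libraries was at least 20 for 14 members, between 1 and 20 for 28 and under 1 for 4, with a median of 9.85. The 5 members with the highest levels, Usp39, Usp7, Usp1, Usp5 and Usp4, held 33.8% of the summed FPKM of the family.

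Usp39 encodes a splicing factor of the tri-snRNP that has the protease fold without protease activity. Its FPKM were 55.07 and 59.58 in wild type and 50.84 and 51.28 in the knockout. Usp7, whose protein stabilises the p53 ligase MDM2 and Foxp3, had 51.96, 53.42, 47.26 and 48.41 FPKM in wild type 1 and 2 and knockout 1 and 2. For both genes the wild-type libraries were the higher ones and the groups did not overlap. Usp5, which takes apart free ubiquitin chains, had 48.95, 47.59, 46.77 and 51.48 FPKM in the same order, and its groups overlapped.

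**Figure D1:**
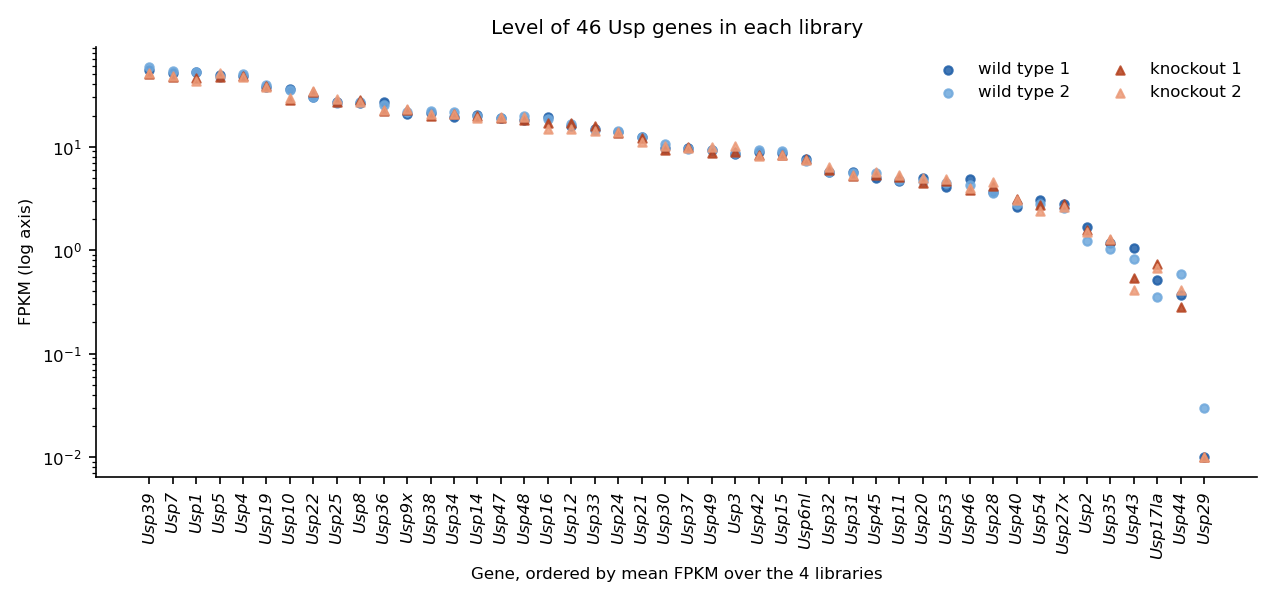
FPKM of each of the 46 Usp genes in each library, on a log axis, ordered by the mean over the 4 libraries; circles are wild type and triangles knockout. The genes run from Usp39, at 50.84 to 59.58, down to Usp29, at 0.01 to 0.03, and the 4 libraries lie close together for most genes.

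In the order of FPKM, 35 of the 45 pairs of neighbouring genes overlapped in their ranges over the 4 libraries, so ranks within such runs are not distinct. The 10 pairs that stood apart include Usp4 above Usp19, Usp22 above Usp25 and Usp27x above Usp2. The lowest 4 members were Usp43, Usp17la, Usp44 and Usp29. Usp29, an imprinted gene, had 1.76, 4.44, 1.55 and 1.81 expected counts and was the single member too low to test.

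Paralogues ranged from 1.58 times apart in mean FPKM, for Usp9x over Usp24, and 1.64 times, for Usp53 over Usp54, to much wider gaps. Usp4 had a mean of 48.3 FPKM, its relative Usp15 8.59 FPKM and its relative Usp11 4.97 FPKM, and the ranges of the 3 genes did not overlap. Usp22, of the SAGA coactivator complex, had 32.2 FPKM against 2.71 FPKM for its relative Usp27x. Usp12 had 16.01 FPKM against 4.23 FPKM for Usp46, and both bind the cofactor encoded by Wdr48. The family as a whole took 0.369% and 0.375% of the counts in wild type and 0.360% and 0.364% in the knockout.

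Across genotypes, 9 of the 45 tested members changed, 2 upward and 7 downward (edgeR quasi-likelihood test, Benjamini-Hochberg adjusted over all 12677 genes tested, threshold 0.05). Over all genes the same test called 26.8%, with 13.6% upward and 13.2% downward. Among Usp genes the shares were 20%, 4.44% and 15.6%, and their difference from all genes was not tested. The median difference on the log2 scale was -0.02 in the family and -0.0024 over all genes. In bulk RNA, fewer cells of one type and less RNA per cell cannot be told apart.

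Changes were small. Among the 9 members past the threshold the fold ranged from 1.10 for Usp7 to 1.98 for Usp43, and without Usp43 the largest was 1.23, for Usp10. All 9 had groups that did not overlap in CPM. So did 18 of the 36 members that did not pass, and 63.5% of all tested genes, so a lack of overlap alone marks no member out.

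**Figure D2:**
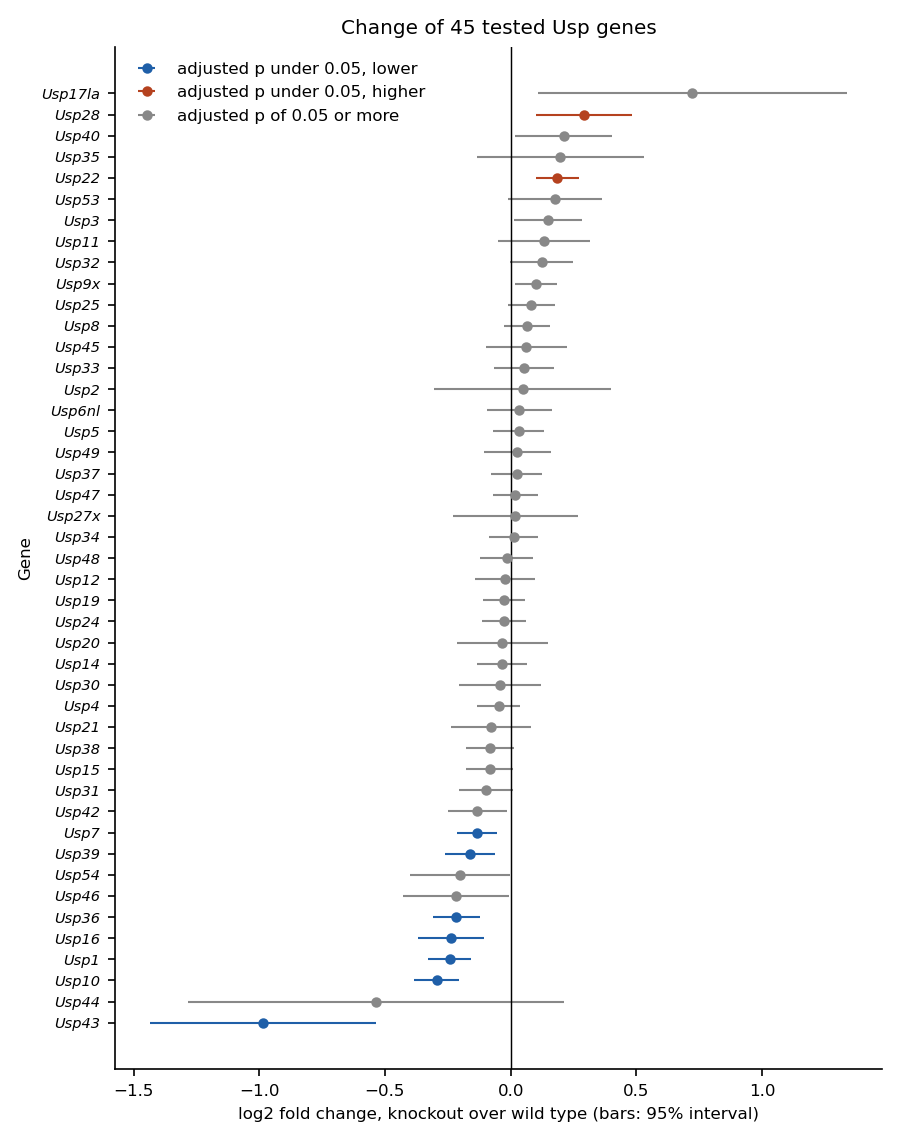
log2 fold change, knockout over wild type, of the 45 tested Usp genes; points are edgeR estimates and bars their 95% intervals. Blue genes are lower and red genes higher with an adjusted p under 0.05; Usp43, at -0.99, and the uncalled Usp17la, at 0.72, lie at the ends and most others are near 0.

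Of 6 tested members with roles in DNA repair and genome maintenance 1 fell (Usp1) and 1 rose (Usp28), and of 5 that act on histones 1 fell (Usp16) and 1 rose (Usp22). Of 3 that act on free chains, ribosomes and proteasomes Usp10 fell, of 5 with roles in the cell cycle, Myc and p53 Usp36 fell, and none of 7 at membranes and mitochondria passed. Set against the 26.8% called among all genes, groups this small show nothing particular to any role. Usp10, whose protein works with the stress granule protein G3BP1 and deubiquitinates p53 and ribosomal proteins, had 135 and 133 CPM in wild type and 107 and 112 CPM in the knockout. Both knockout libraries were lower, and the spread within each group was small beside the gap. The group means were 134.2 ± 1.01 and 109.4 ± 3.07 CPM (SD, n = 2). In log2 terms the knockout was at -0.29 ± 0.04 relative to wild type (SE; edgeR adjusted p = 0.000118).

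Usp1, which with its cofactor removes ubiquitin from the DNA repair proteins FANCD2 and PCNA, had 193 and 192 CPM in wild type and 166 and 158 CPM in the knockout. Both knockout libraries again lay below both wild-type libraries. The log2 difference was -0.24 ± 0.04 (edgeR adjusted p = 0.000424). Usp10 and Usp1 each passed in 11 of 12 alternative analyses, including every one that left out a library.

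Usp36, whose nucleolar protein stabilises Myc, had 152 and 143 CPM in wild type and 125 and 129 CPM in the knockout. Its groups did not overlap, and the log2 difference was -0.22 ± 0.04 (edgeR adjusted p = 0.00198). Without knockout replicate 1 the adjusted p was 0.0613. Usp16, which takes ubiquitin off histone H2A at mitosis, had 56.3, 54.5, 49.9 and 44.1 CPM in wild type 1 and 2 and knockout 1 and 2. Its log2 fold change was -0.24 ± 0.06 (edgeR adjusted p = 0.00955), with 0.0786 without wild type replicate 1, 0.153 without knockout replicate 2 and 0.0680 in DESeq2.

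The 2 most abundant members fell slightly. Usp39 had 123 and 133 CPM in wild type and 114 and 115 CPM in the knockout, or -0.16 ± 0.05 in log2 (edgeR adjusted p = 0.0166). Its lower wild-type library lay close to the knockout libraries. Leaving out wild type replicate 2 gave an adjusted p of 0.221, with 0.141 without knockout replicate 1, 0.124 without knockout replicate 2 and 0.0827 in DESeq2.

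Usp7 had 285 and 293 CPM against 260 and 266 CPM, or -0.13 ± 0.04 in log2 (edgeR adjusted p = 0.0155). The groups were apart in CPM, but the adjusted p rose to 0.126 when wild type replicate 2 was left out, to 0.125 for knockout replicate 1 and to 0.0702 for knockout replicate 2.

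Usp43 was the member with the largest change and among the least abundant. Wild type had 94 and 74 counts and the knockout 47 and 35, or 4.74, 3.75, 2.44 and 1.84 CPM. Both knockout libraries had fewer reads than either wild-type library, although the wild-type libraries also differed from each other. Its log2 fold change was -0.99 ± 0.21 (edgeR adjusted p = 0.00295), which became 0.0523 with wild type replicate 1 left out and 0.0817 with knockout replicate 2 left out. On the log2(FPKM + 1) scale, which compresses low genes, the change was -0.40.

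**Figure D3:**
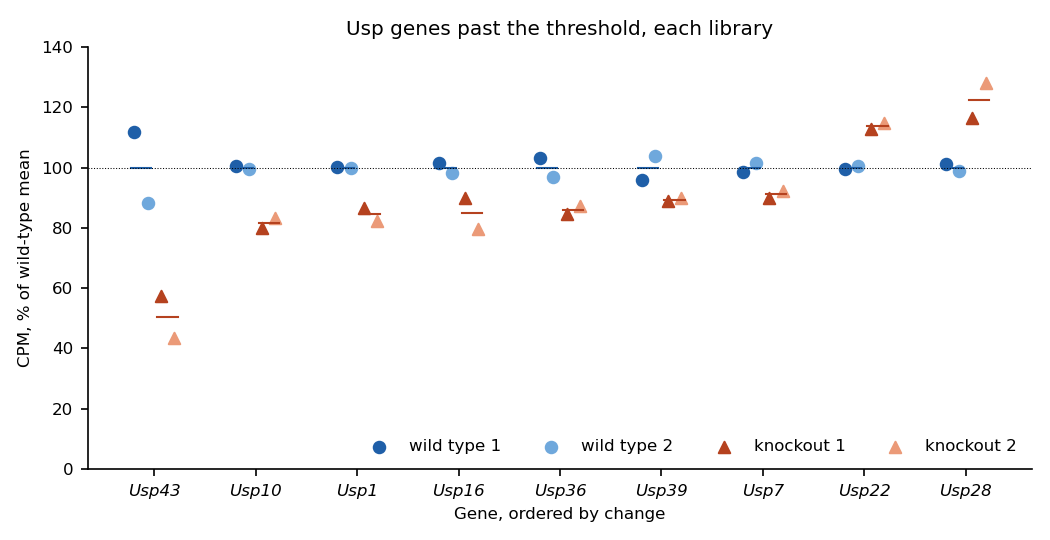
CPM of the 9 Usp genes past the threshold in each library, as a percentage of the wild-type mean of that gene; circles are wild type, triangles knockout and short lines the group means. All knockout libraries of the 7 genes on the left lie below the wild-type libraries, and those of Usp22 and Usp28 above.

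Usp22 and Usp28 rose. Usp22, which as part of SAGA removes ubiquitin from histone H2B and is known to stabilise Foxp3, had 134 and 136 CPM in wild type and 152 and 155 CPM in the knockout. Both knockout libraries lay above both wild-type libraries. Its log2 fold change was 0.19 ± 0.04 (edgeR adjusted p = 0.00292), and the adjusted p was 0.0540 without knockout replicate 2. Usp28, which stabilises Myc against the ligase FBW7 and acts in the DNA damage response, had 305 and 297 counts in wild type against 342 and 370 in the knockout. Its log2 fold change was 0.29 ± 0.09 (edgeR adjusted p = 0.0256). That call was lost whichever library was left out (adjusted p from 0.0573 to 0.203) and in DESeq2 (0.197).

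Upstream sequences are shown for Usp36 and Usp28 as an example of a member that fell and one that rose. They are from RefSeq (GRCm38.p6), end at the base before the gene start, and read 5′ to 3′ along the gene. Usp36 lies at chr11:118259651-118290260 on the minus strand and the window at chr11:118290261-118290494. Usp28 lies at chr9:48985319-49042517 on the plus strand and the window at chr9:48985135-48985318. Capitals mark the GC box (GGGCGG), the CCAAT box (CCAAT or its complement ATTGG) and the core of the cyclic AMP response element (TGACGT), searched on both strands.
Usp36: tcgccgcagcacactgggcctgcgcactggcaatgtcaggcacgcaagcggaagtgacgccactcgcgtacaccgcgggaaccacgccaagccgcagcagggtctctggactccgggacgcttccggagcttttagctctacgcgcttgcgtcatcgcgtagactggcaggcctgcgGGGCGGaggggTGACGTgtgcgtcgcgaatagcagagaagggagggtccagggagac
Usp28: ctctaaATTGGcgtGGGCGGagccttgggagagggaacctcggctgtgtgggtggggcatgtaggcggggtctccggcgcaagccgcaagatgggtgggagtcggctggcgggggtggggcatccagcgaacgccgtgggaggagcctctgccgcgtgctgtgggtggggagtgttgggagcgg
Both windows hold a GC box. Usp36 also holds TGACGT, and Usp28 ATTGG a few bases before its GC box. Other members that fell differ. The upstream window of Usp10 held none of these motifs. That of Usp16 held none of them either, only an E-box (CACGTG), which was also searched. Among the RefSeq promoter windows of all tested genes, 61.7% held a GC box, 38.0% a CCAAT box and 11.6% TGACGT. Those windows were not trimmed at the gene start and are longer than the windows shown, so the shares are not for like windows. These matches are letters in a window and not measured binding.

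None of the 4 tested members known to act on TGF-beta receptors and SMAD proteins passed, where 26.8% of all genes did, so the count alone says little about the group. Usp4, Usp11 and Usp15 are paralogues whose proteins deubiquitinate the type I TGF-beta receptor. Usp15 had 101 and 106 CPM in wild type and 97.2 and 97.9 CPM in the knockout, so both knockout libraries were slightly lower. Its log2 fold change of -0.08 had a 95% interval from -0.18 to 0.01 (edgeR adjusted p = 0.176). Usp4 had 180, 185, 178 and 174 CPM in wild type 1 and 2 and knockout 1 and 2, with an interval from -0.13 to 0.04. Usp11 had 16.4, 16.7, 17.7 and 18.6 CPM, with an interval from -0.05 to 0.32. Usp9x, whose protein removes ubiquitin from SMAD4, had 251 and 262 CPM against 271 and 279 CPM. Both knockout libraries were higher, at a log2 fold change of 0.10 ± 0.04, without passing (edgeR adjusted p = 0.0658). With upper-quartile factors its adjusted p was 0.0470.

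Of 5 tested members grouped here for roles in T cell receptor signalling or on Foxp3, Usp7 passed downward, as given above. Over all genes 26.8% passed, so the count alone says little about the group. Usp22, counted above with the histone group, is also known to act on Foxp3 and passed upward. Usp12 had 68.5, 70.7, 72.6 and 64.5 CPM in wild type 1 and 2 and knockout 1 and 2, and its groups overlapped. Usp8, which acts on endosomes and is needed for thymocyte development, had 110, 113, 119 and 115 CPM, with both knockout libraries higher, and a log2 difference of 0.06 (edgeR adjusted p = 0.287). Usp21, one of the proteases that stabilise Foxp3, had 27.2, 27.1, 27.0 and 24.4 CPM, with a 95% interval from -0.24 to 0.08. Usp44, also linked to Foxp3, had 1.01, 1.57, 0.726 and 1.05 CPM, and its interval from -1.28 to 0.21 spans changes in both directions.

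Several other members had both knockout libraries on one side of both wild-type libraries without passing. Usp40 had 275 and 296 counts in wild type against 324 and 315 in the knockout (log2 0.21 ± 0.09, edgeR adjusted p = 0.103), and Usp3, a histone deubiquitinase, 47.7 and 48.9 against 49.9 and 57.3 CPM. The value of Usp3 rested on knockout replicate 2: its log2 difference was 0.15 with all libraries, 0.25 without knockout replicate 1 (edgeR adjusted p = 0.0357) and 0.05 without knockout replicate 2 (0.658). Usp46 had 15.6 and 13.9 against 12.5 and 12.9 CPM, and Usp54 20.2 and 18.4 against 17.9 and 15.6 CPM. Its paralogue Usp53 had a value of the opposite sign, 0.18, against -0.20 for Usp54. In all, 7 of the 36 members that did not pass had an unadjusted edgeR p under 0.05. With those that passed included, 16 of 45 tested members had such a p, and so did 4784 of 12677 genes, so the count alone says little about the family.

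Paralogues of members that changed did not pass, where 26.8% of all genes did, so for so few genes the count alone says little. Usp25, the relative of Usp28, had a mean of 27.4 FPKM and a log2 difference of 0.08, against 3.97 FPKM and 0.29 for Usp28. Usp45, related to Usp16, had 5.40 FPKM and a difference of 0.06, the opposite sign to Usp16. Usp42, related to Usp36, had 46.3 and 48.1 CPM in wild type and 43.3 and 42.9 CPM in the knockout, so it was lower in both knockout libraries, as Usp36 was (log2 -0.13 ± 0.06, edgeR adjusted p = 0.0903). Usp47, related to Usp7, was at 0.02 and Usp31, related to Usp43, at -0.10. Usp27x, related to Usp22, was at 0.02, and Usp3, also related to Usp22, at 0.15, as given above. Whether paralogues differ in their change was not tested.

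Usp17la, of a subfamily with several near copies, had 26.8 and 18.5 counts in wild type and 38.2 and 34.2 counts in the knockout. Its log2 fold change of 0.72 ± 0.29 did not pass (edgeR adjusted p = 0.0778). It is the 1 member for which at least 20% of the 31-base words of its transcripts occur in another listed gene, with 29.6% shared, most of them with Usp17le. Reads may therefore be split among copies and its value is uncertain. The exons of 9 members overlap another listed gene on the opposite strand, over more than 5% of their bases for 4 of them: Usp14 with Thoc1 (26.0%), Usp34 with Ahsa2 (11.6%), Usp54 and Usp30. Of the members that changed, Usp16 alone has such an overlap, with Cct8, over 2.03% of its exon bases. The strand setting of the counting is not given in the sources used here.

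Members that do not act as ubiquitin proteases are included by the symbol rule. Usp6nl encodes a GTPase-activating protein for Rab GTPases and had 7.59, 7.25, 7.61 and 7.46 FPKM, with overlapping groups. The gene length that RSEM reports, which shifts with the mix of transcripts, could vary in the 19 members with more than 1 listed transcript. No member differed by 5% with groups apart. The largest difference was in Usp44, whose length was 3.17% lower in the knockout, at the low counts given above.

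Deubiquitinases of other families with some of their relatives, and genes that work with Usp proteins, were then read in the same fit. Of 36 tested genes on the list of other deubiquitinases, 4 rose and 8 fell, or 33.3%, against the 26.8% of all genes. Their median log2 fold change was -0.03. The list includes relatives, such as Uspl1, that are not known to act on ubiquitin. Tnfaip3, which encodes the NF-kB inhibitor A20, rose from 132 and 138 to 163 and 172 CPM (log2 0.31 ± 0.04, edgeR adjusted p = 0.00011). Otulin, which cuts linear ubiquitin chains, fell from 87.7 and 88.0 to 73.4 and 71.5 CPM (log2 -0.28 ± 0.04, edgeR adjusted p = 0.000347). In neither gene did the groups overlap.

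Fam63b, also known as MINDY2, rose by 0.24. Uchl5, which sits on the proteasome, fell by 0.25 and Josd1 fell by 0.20 on the log2 scale. These 5 genes kept their call when any 1 library was left out. The others called were Uchl3, Otub1, Uspl1, Otud6b and Psmd14 downward and Zufsp and Mysm1 upward. Each of these lost its call without at least 1 library, with a highest adjusted p of 0.0807 for Otub1, 0.104 for Uspl1, 0.148 for Otud6b, 0.153 for Uchl3, 0.180 for Zufsp, 0.199 for Mysm1 and 0.300 for Psmd14.

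Of 15 tested partners of Usp proteins, 2 rose and 3 fell, or 33.3%, against the 26.8% of all genes. The count alone says little about a list this small. G3bp1, a partner of Usp10, fell from 504 and 519 to 441 and 442 CPM (log2 -0.21 ± 0.04, edgeR adjusted p = 0.000443). G3bp2, on the same list, had 185 and 188 CPM in wild type and 186 and 185 CPM in the knockout. It did not pass (edgeR adjusted p = 0.938). Sart3, whose protein brings Usp4 and Usp15 to the spliceosome, fell by 0.20 on the log2 scale. The genes for SAGA and related subunits went both ways, and not all passed. Atxn7, at 0.08 (edgeR adjusted p = 0.376), and Eny2, at -0.12 (0.283), did not. Atxn7l1 rose by 0.35 and Atxn7l2 by 0.39, while Atxn7l3, which holds the Usp22 module together, fell by 0.17 (edgeR adjusted p = 0.0183), a call that leaving out wild type replicate 1 (0.204) or knockout replicate 2 (0.253) removed. Wdr48, the cofactor of Usp1, Usp12 and Usp46, had a log2 difference of 0.04 ± 0.04 and did not pass (edgeR adjusted p = 0.558).

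**Figure D4:**
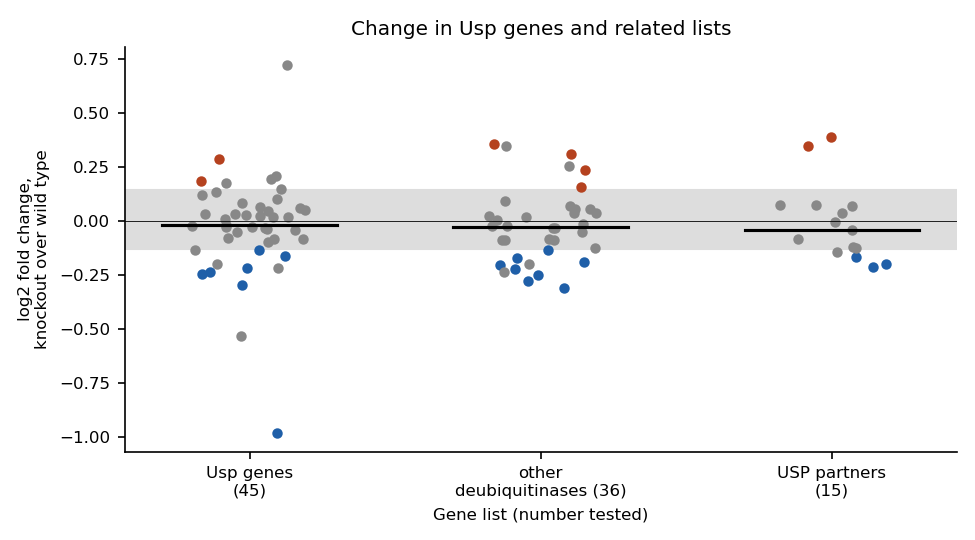
log2 fold change, knockout over wild type, of each tested gene in the Usp family and in 2 related lists; red and blue points are higher and lower with an adjusted p under 0.05, black lines are list medians and the grey band holds the middle 50% of all tested genes. All 3 medians lie between -0.05 and 0.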

How the data were processed

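RNA from CD4+ T cells was measured in 2 wild-type and 2 Bfar knockout libraries, grouped by their titles. Bowtie, RSEM and the build GRCm38 are named in the submitters' processing notes, without versions. The authors made the expected count, FPKM and length of each gene with RSEM, per the file headers and those notes. The smallest FPKM in the deposited tables was 0.01, and genes absent from a library's table were set to 0.

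Expected counts were rounded and tested with edgeR 4.0.16 in R 4.3.3 (quasi-likelihood test, two-sided, TMM, default filterByExpr with a minimum count of 10 and a minimum total of 15, genotype as the only factor, Benjamini-Hochberg threshold 0.05) across 12677 genes; the common biological coefficient of variation was 2.9%. Standard errors were derived from the log2 difference and its F statistic, and CPM from TMM-scaled totals. Alternatives used DESeq2 1.42.0, limma 3.58.1 on log2(FPKM + 0.1) and log2(FPKM + 1), other scaling factors, no filter, leaving out each library, and a replicate block. Members and lists were chosen with earlier results of these data known. Named were all members past the threshold, the 5 with the highest FPKM and those with known roles in TGF-beta or T cell signalling. Low members, paralogues of members that passed and up to 6 genes per related list were also named. Usp40, Usp46, Usp53, Usp54, Usp6nl, Wdr48, G3bp2, Atxn7 and Eny2 were added after their values were seen. So were the other list genes past the threshold and members with overlapping exons. In counts simulated for this comparison over 12677 genes, the genes tested with edgeR held 50 with a 1.2-fold, 74 with a 1.5-fold and 75 with a 2-fold change. Of these edgeR recovered 40%, 78.4% and 90.7%, and it called 15 unchanged genes. The real comparison called 26.8% of genes, a far larger share than was changed in the simulation, so these rates may not carry over to it. Coordinates, promoters (RefSeq, GRCm38.p6) and transcripts (GENCODE M21) are of the authors' build; all 46 members matched. Protein sequences were not used here. Results for 1 further gene list are not reported here.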

Additional observations from a re-analysis of the deposited data

How the results depend on the processing

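Of the 9 Usp genes called, 9 kept their call with DESeq2-style size factors, 9 with upper-quartile factors, 6 with DESeq2, 6 with either pseudocount on filtered FPKM, 5 when low counts were kept and 0 with unfiltered FPKM (limma, 10 members at an unadjusted p under 0.05); none changed sign. The counts of Usp genes up (2) and down (7) were 1 and 4 with no filter and 0 and 0 with unfiltered FPKM; up was 1 with DESeq2 and with filtered FPKM, and with 1 library left out the ranges were 0 to 2 and 3 to 5. The cause was not tested. Other deubiquitinases (4 up, 8 down) gave 2 and 5 with no filter, 2 and 3 with DESeq2, 2 up with log2(FPKM + 0.1) or log2(FPKM + 1), 0 and 1 with unfiltered FPKM, and 2 to 3 and 4 to 6 with 1 library left out. Partners gave 0 and 0 with unfiltered FPKM. All genes up (1728) and down (1670) were 1051 and 877 with no filter, 921 and 786 with DESeq2, 1151 up with log2(FPKM + 0.1), 143 and 116 with unfiltered FPKM, and 812 to 1243 and 629 to 1112 with 1 library left out. Deviations of libraries with the same replicate number had a correlation of 0.0067 over 12677 genes. With 2 libraries per group this cannot settle whether the libraries are paired. With the replicate block 4 Usp genes rose, Usp9x (edgeR adjusted p = 0.0241) and Usp3 (0.0428) added, and 7 fell. Over all genes 1977 rose and 1975 fell with the block.

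Leaving out 1 library turned the sign of 12 uncalled members, whose log2 fold changes then ranged from -0.11 to 0.024 for Usp30, -0.068 to 0.037 for Usp48, -0.025 to 0.13 for Usp33, -0.059 to 0.086 for Usp34, -0.11 to 0.061 for Usp12, -0.041 to 0.10 for Usp5, -0.074 to 0.12 for Usp49, -0.15 to 0.28 for Usp2, -0.049 to 0.088 for Usp27x, -0.070 to 0.00043 for Usp14, -0.10 to 0.037 for Usp20 and -0.028 to 0.16 for Usp45. Depth limits Usp35, Usp43, Usp17la, Usp44 and Usp29, with under 100 counts per library.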
